A study of Danio rerio with 18 samples.

Results

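The Na,K-ATPase is the sodium pump of animal cells. Its alpha subunit hydrolyses ATP and moves the ions, its beta subunit is a glycoprotein that the alpha subunit needs to fold and to reach the membrane, and small FXYD proteins such as the gamma subunit tune its transport. In kidney tubules the pump sits in the basolateral membrane, where the sodium gradient it maintains drives the reabsorption of other solutes. In zebrafish the alpha1 gene exists as several neighbouring copies, and the pronephric duct, part of the embryonic kidney, is a site of strong pump expression.

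Transcripts of 8 Na,K-ATPase subunit genes are described here, 8 of the 32820 RefSeq accessions counted. They were chosen by symbol from the alpha and beta families. The 5 alpha genes are atp1a1a.2 (NM_131687.1), atp1a1a.3 (NM_131688.1), atp1a1a.4 (NM_131689.1), atp1a1a.5 (NM_178099.2) and atp1a1b (NM_131690.1). The 3 beta genes are atp1b1a (NM_131668.3), atp1b1b (NM_131671.1) and atp1b3a (NM_131221.2). Each of the 8 had 1 accession, and all 8 passed the filter on low counts. The set does not hold every alpha and beta gene. Left out are the alpha genes atp1a1a.1, atp1a2a, atp1a3a and atp1a3b and the beta genes atp1b2a, atp1b2b, atp1b3b and atp1b4. These are described further below as other pump genes. The alpha1 copies are neighbours in the RefSeq gene table of assembly GRCz12tu, in the order atp1a1a.4, atp1a1a.1, atp1a1a.2, atp1a1a.3 and atp1a1a.5, with 1 other gene between atp1a1a.1 and atp1a1a.2. Reads of such similar copies may be split between them in counting, so the value of any single copy is uncertain. Transcript lengths were not used here, and levels are therefore compared between libraries and not between genes.

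The libraries came from pronephric duct fragments of embryos at 30 hours after fertilisation, all of the transgenic line Na, K-ATPase alpha1A4:GFP, and the fragments were picked by eye for their GFP. The reporter is driven by the promoter of atp1a1a.4, so the tissue of both groups was selected through a gene described here. The 10 control libraries (genotype label WT) were from embryos given a ctrl morpholino at the 1-cell stage. The 8 actl6a libraries (genotype label actl6a knockdown) were from embryos given an actl6a morpholino, an antisense oligonucleotide against translation of this SWI/SNF chromatin remodelling subunit. The labels do not say whether a library is a single duct or a pool of fragments, nor whether libraries of a group came from separate injections, so p-values measure the spread between libraries only. The groups were deposited in separate tables and carry separate barcode ranges, so preparation and morpholino cannot be told apart.

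Control libraries held 1564673 to 3301873 counts each, and actl6a libraries 1731521 to 3393310. The actl6a transcript itself measured 110 ± 15.6 CPM (counts per 1000000 of the TMM-scaled library total, SD, n = 10) in controls and 139 ± 12.4 (SD, n = 8) in actl6a libraries, a log2 fold change of 0.34 ± 0.09 (SE, edgeR quasi-likelihood test, Benjamini-Hochberg adjusted p = 0.0137). It did not pass without the filter on low counts (adjusted p = 0.0552) or with tissue markers as covariates (0.119). A morpholino against translation need not lower its target's mRNA, so this value does not check the labels. Summed pronephros markers were between 2389 and 3534 CPM in every library. None of the 12 tested pronephros marker accessions passed the test, where 16.4% of all tested accessions did. Of that list the symbols clcnk, mecom, pax2a, pax8 and slc4a4a had no counts assigned and were not analysed here. The gene cdh17 made up 1128 CPM of the sum in controls and 1121 in actl6a libraries (group means). Skeletal muscle markers varied most, with sums of 70.2 to 7205 CPM in controls and 339 to 8482 in actl6a libraries. In tissue fragments, fewer cells of a type and less RNA per cell cannot be told apart.

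The comparison of actl6a with control libraries asked whether the pump's transcripts differ when actl6a is targeted. With the threshold set at 0.05 for edgeR's Benjamini-Hochberg adjusted p, none of the 8 subunits passed, where 16.4% of all 14462 tested accessions did, 7.9% higher and 8.52% lower. That is 1143 higher and 1232 lower accessions, and 852 and 1608 when library totals were left unscaled. At an unadjusted p under 0.05 there were 2 of 8, atp1a1a.5 and atp1a1b, where 31.2% of all accessions were. DESeq2 called 1 subunit beside 21.1% of all accessions, and limma-voom called 0 beside 17.3%. The fitted log2 fold change (actl6a over control) was negative for 6 subunits and positive for 2, with a median of -0.13, beside a median of 0.01 over all tested accessions, of which 49.004% were negative. None of the 8 had groups that did not overlap, against 1.77% of all tested accessions. The alpha1 copy atp1a1a.1 is outside this set of 8. It passed, with groups that did not overlap, and is described below. A p above the threshold does not show that the groups are alike, and the standard errors differed widely between subunits.

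**Figure D1:**
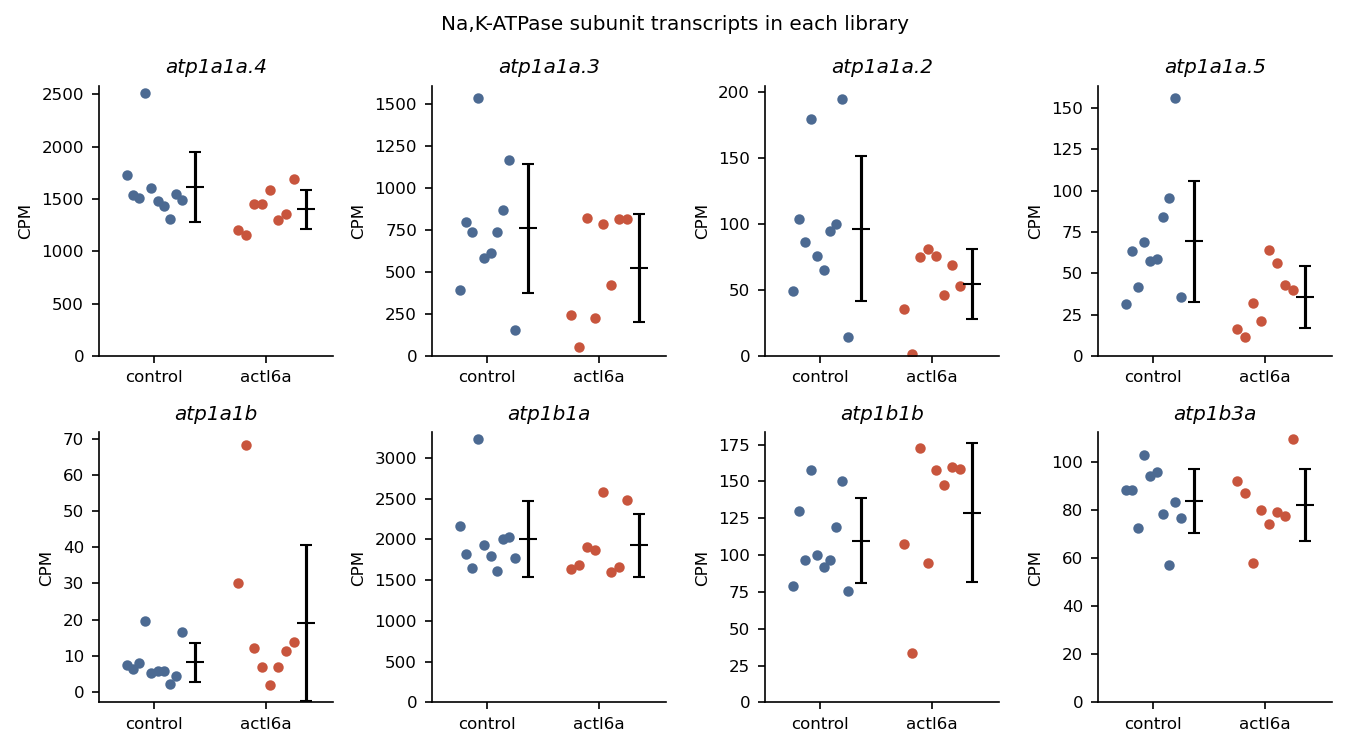
Level of each of the 8 subunits in every library, in CPM (linear axis, a separate scale for each gene). Each point is a library, the horizontal mark is the group mean and the bar is 1 SD (10 control and 8 actl6a libraries). The groups overlap for every gene. The bar of atp1a1b in the actl6a group reaches below 0 because a single library is at 68.2 CPM.

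Of the catalytic alpha subunits, atp1a1a.4 is the copy whose promoter marks the duct. It measured 1309 CPM in the lowest, 1520 in the median and 2511 in the highest control library, and 1154, 1402 and 1694 CPM in the actl6a libraries. The highest control, replicate 4, stood apart from the next at 1732 CPM, and the control median exceeded 6 of the 8 actl6a values although the groups overlapped. That replicate also had the smallest total of all libraries, 1564673 counts. The means were 1614 ± 334 CPM (SD, n = 10) and 1400 ± 184 (SD, n = 8). The log2 fold change was -0.21 ± 0.11 (SE, edgeR adjusted p = 0.221), and it was -0.11 without control replicate 4.

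The copy atp1a1a.3 varied far more between libraries. Its lowest, median and highest values were 154, 736 and 1530 CPM in the controls and 51.6, 602 and 821 CPM in the actl6a libraries. Control replicate 10 and actl6a replicates 1, 2 and 4 were low, and the groups overlapped over most of their range. Means were 757 ± 384 CPM (SD, n = 10) and 521 ± 322 (SD, n = 8), for a log2 fold change of -0.54 ± 0.43 (SE, edgeR adjusted p = 0.417). Its coefficient of variation, the SD as a percent of the mean, was 50.7% in controls and 61.8% in actl6a libraries. Among 210 accessions with a mean level within 1.5-fold the median was 15.5% and 17.3%, and 96.7% and 95.7% of them varied less.

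The neighbouring copy atp1a1a.2 measured 14.6, 90.5 and 195 CPM (lowest, median, highest) in controls and 1.21, 60.6 and 80.7 CPM in actl6a libraries. All 8 actl6a libraries lay below the control median, but control replicates 1, 5, 6 and 10 lay within their range. The lowest actl6a value, in replicate 2, was 3 counts. Means were 96.3 ± 54.8 CPM (SD, n = 10) and 54.4 ± 26.7 (SD, n = 8), and the log2 fold change of -0.82 ± 0.46 (SE) did not pass the test (edgeR adjusted p = 0.228).

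The last copy in the row, atp1a1a.5, came nearest to the threshold. It measured 31.4, 61.1 and 156 CPM (lowest, median, highest) in controls and 11.7, 36.1 and 63.98 CPM in actl6a libraries. The control median exceeded 7 of its 8 actl6a values, and 3 of them were below every control. The means were 69.4 ± 36.6 CPM (SD, n = 10) and 35.6 ± 18.8 (SD, n = 8), which is a log2 fold change of -0.97 ± 0.34 (SE, edgeR adjusted p = 0.0543). It passed at 0.0224 in DESeq2, where 21.1% of all accessions passed, and at 0.0428 with library totals unscaled, where 17% did. It also passed when control replicate 1 or 10 or actl6a replicate 5 or 6 was left out. That is 4 of 18 fits with a library left out and 2 of 10 other alternatives. The edgeR adjusted p reached 0.108 with a library left out, and adjusted p reached 0.605 in the other alternatives. The log2 fold change was -0.75 without control replicate 9, the highest library for this gene.

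The gene atp1a1b is the other zebrafish alpha1 gene, outside the row of copies. It was counted sparsely, with 2.28, 6.17 and 19.5 CPM (lowest, median, highest) in controls and 1.92, 11.8 and 68.2 CPM in actl6a libraries. Actl6a replicate 2 held the value of 68.2, replicate 1 the next at 30.2, and the other 6 lay within the control range or just below it. Means were 8.19 ± 5.47 CPM (SD, n = 10) and 19.0 ± 21.6 (SD, n = 8), for a log2 fold change of 1.22 ± 0.53 (SE, edgeR adjusted p = 0.118) that was 0.56 without actl6a replicate 2. That library also had the highest sum of neural markers, 539 CPM, where the controls reached 91.8 at most. Within the actl6a libraries atp1a1b followed the neural sum with r = 0.878 (two-sided exact permutation p = 0.00218, adjusted 0.0611 over 112 relations, n = 8) and rho = 0.738 (exact permutation p = 0.0458, adjusted 0.428). Without the 2 libraries farthest from the median neural sum r was 0.514. With the muscle sum, in the same libraries, r was 0.673 (exact permutation p = 0.0637, adjusted 0.368, n = 8) and rho 0.810 (exact permutation p = 0.0218, adjusted 0.244), with r = 0.201 without the 2 farthest. In the controls r with the neural sum was -0.19 (permutation p = 0.608, adjusted 0.841, n = 10) and rho -0.42 (permutation p = 0.233, adjusted 0.767), with r = 0.335 without the 2 farthest. The part of other tissue in the atp1a1b value was not tested.

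Of the beta subunits, atp1b1a measured 1616, 1881 and 3227 CPM (lowest, median, highest) in controls and 1597, 1780 and 2581 CPM in actl6a libraries. Control replicate 4 was again the highest, well above the next control at 2164 CPM, and the other libraries of the groups overlapped. Means were 2002 ± 464 CPM (SD, n = 10) and 1928 ± 389 (SD, n = 8), and the log2 fold change was -0.05 ± 0.13 (SE, edgeR adjusted p = 0.824) that was 0.05 without control replicate 4.

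The second beta1 gene, atp1b1b, had 75.3, 98.5 and 158 CPM (lowest, median, highest) in controls and 33.5, 152 and 172 CPM in actl6a libraries. Most actl6a libraries were high, 6 of 8 above the control median and 3 above every control, while replicate 2 was below every control. Means were 110 ± 28.6 CPM (SD, n = 10) and 129 ± 47.2 (SD, n = 8), and the log2 fold change was 0.23 ± 0.23 (SE, edgeR adjusted p = 0.525). It was 0.37 without actl6a replicate 2 and 0.15 without actl6a replicate 3.

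The beta3 gene atp1b3a was the steadiest subunit in controls. Its values were 57.0, 85.8 and 103 CPM (lowest, median, highest) in controls and 57.9, 79.7 and 110 CPM in actl6a libraries, with the groups interleaved. Its coefficient of variation was 15.8% in controls, where the median of 3518 accessions within 1.5-fold of its level was 16.8%. Means were 83.6 ± 13.3 CPM (SD, n = 10) and 82.3 ± 15.0 (SD, n = 8), and the log2 fold change was -0.02 ± 0.12 (SE, edgeR adjusted p = 0.918).

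**Figure D2:**
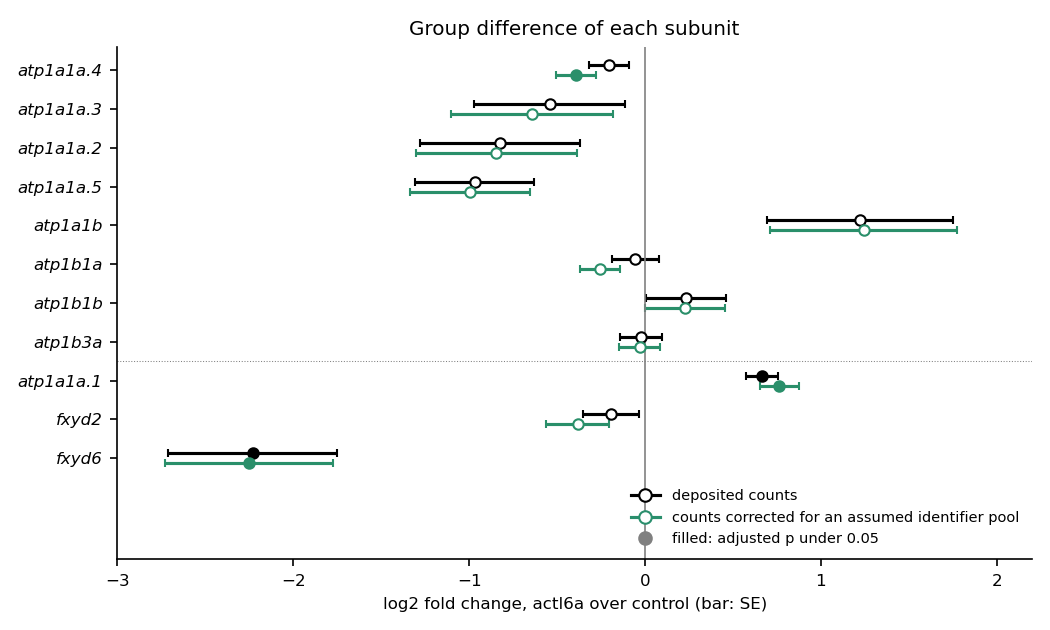
Log2 fold change, actl6a over control, of the 8 subunits (above the dotted line) and of atp1a1a.1, fxyd2 and fxyd6 (below it), with bars of 1 SE, from edgeR fits over all tested accessions. Black is the fit on deposited counts and green the fit on counts corrected for an assumed pool of 6561 molecular identifiers. Filled points have an adjusted p under 0.05. Of the subunits above the line only atp1a1a.4 on corrected counts, at -0.39, is filled, and atp1a1a.1 and fxyd6 are filled in both fits.

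The other copy of the row, atp1a1a.1, was above the controls in every actl6a library. It measured 328, 482 and 537 CPM (lowest, median, highest) in controls and 653, 717 and 877 CPM in actl6a libraries. All 8 actl6a libraries were above all 10 controls, as in 0.933% of all tested accessions. Means were 466.1 ± 62.9 CPM (SD, n = 10) and 740 ± 79.8 (SD, n = 8), so atp1a1a.1 rose by a log2 fold change of 0.67 ± 0.09 (SE, edgeR adjusted p = 1.40e-04). Under every alternative setting and every left-out library tried it stayed past the threshold, with log2 fold changes from 0.60 to 0.84 and adjusted p up to 0.0172.

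Counts of atp1a1a.1 over those of its neighbour atp1a1a.4 were 0.167 to 0.385 in controls and 0.405 to 0.666 in actl6a libraries. These 2 ranges did not overlap. The CPM of atp1a1a.1 alone already had ranges that did not overlap, so the ratio is not a separate result. How many other ratios do the same was not computed. As a share of all alpha counts, which are not corrected for transcript length, atp1a1a.1 took 8.78% to 22.2% in controls and 20.5% to 32.8% in actl6a libraries. When the 5 copies were summed to 1 row before the fit, the log2 fold change was -0.13 ± 0.13 (SE, edgeR adjusted p = 0.542), and it was -0.03 without control replicate 4. The sum did not pass the test while the single copies had fold changes of both signs. Counts of all alpha over all beta genes were 1.11 to 1.49 in controls and 1.03 to 1.501 in actl6a libraries, and these ranges overlapped almost entirely. The largest parts of these sums are atp1a1a.4 and atp1b1a, which are among the most counted accessions. A possible upper limit on such counts is described below, and its part in the ratio was not tested.

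**Figure D3:**
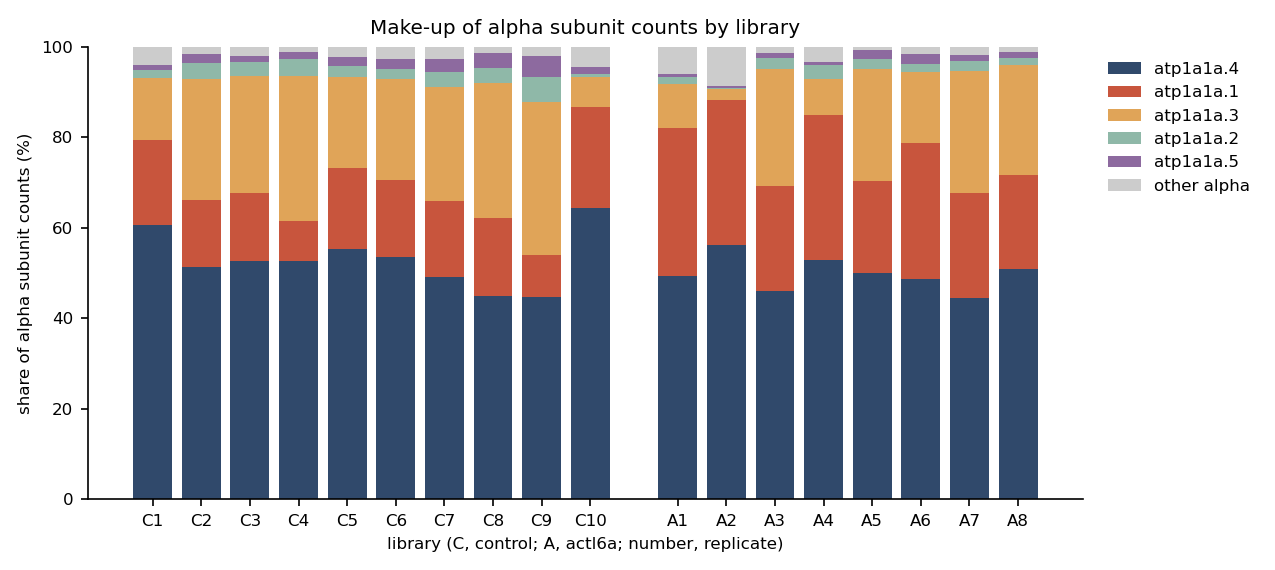
Share of alpha subunit counts (percent, from 0 to 100) taken by each alpha1 copy in each library, with C for control and A for actl6a libraries and the replicate number. The other alpha genes are atp1a1b, atp1a2a, atp1a3a and atp1a3b. The share of atp1a1a.1 is 20.5% or more in each actl6a library, and atp1a1a.3 is lowest in control 10, at 6.69%, and in actl6a 2, at 2.51%.

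Several subunits covaried from library to library within a group. In the controls log2 CPM of atp1a1a.2 and atp1a1a.3 correlated with r = 0.986 (two-sided permutation p = 3e-05, adjusted 0.00084 over 56 relations, n = 10) and rho = 0.952 (permutation p = 0.0002, adjusted 0.00373). Without the 2 farthest libraries r was 0.982. In the actl6a libraries r was 0.851 (exact permutation p = 0.0232, adjusted 0.0999, n = 8) and rho 0.357 (exact permutation p = 0.389, adjusted 0.623), and without replicates 1 and 2 r was -0.09, so that relation rests on those libraries. The ratio of atp1a1a.2 to atp1a1a.3 counts was 0.0947 to 0.167 in controls and 0.0234 to 0.363 in actl6a libraries. These neighbouring copies may share reads, and the part of shared reads in their relation was not tested.

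The beta gene atp1b1b followed atp1a1a.3 in both groups. In controls r was 0.872 (two-sided permutation p = 0.00012, adjusted 0.0021, n = 10) and rho 0.915 (permutation p = 0.00058, adjusted 0.00812), with r = 0.902 without the 2 farthest libraries. In actl6a libraries r was 0.971 (exact permutation p = 2.48e-05, the smallest possible, adjusted 0.00084, n = 8) and rho 1.00 (exact permutation p = 4.96e-05, adjusted 0.00278), with r = 0.941 without the 2 farthest. The order of the 8 actl6a libraries was thus the same for both genes. The counts of atp1b1b over those of atp1a1a.3 were 0.103 to 0.488 in controls, with a median of 0.144, and 0.195 to 0.648 in actl6a libraries, with a median of 0.279.

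The pair atp1a1a.4 and atp1b1a, an alpha and a beta gene, correlated with r = 0.880 in controls (two-sided permutation p = 0.0151, adjusted 0.0770, n = 10) and r = 0.867 in actl6a libraries (exact permutation p = 0.00484, adjusted 0.0466, n = 8). Their rho was 0.673 (permutation p = 0.0394, adjusted 0.221) and 0.786 (exact permutation p = 0.0279, adjusted 0.174), and without the 2 farthest libraries r was 0.871 and 0.872. CPM of atp1b1a was lower in libraries with higher totals (r = -0.94 in controls and -0.95 in actl6a libraries). For atp1a1a.4 that r was -0.82 and -0.71, and 0.195 and -0.16 without the 2 libraries of the farthest totals. The part of library total in the relation of this pair was not tested. The alpha genes atp1a1a.4 and atp1a1a.3 had in controls r = 0.350 (permutation p = 0.254, adjusted 0.399, n = 10), rho = 0.103 (permutation p = 0.785, adjusted 0.838) and r = -0.59 without the 2 farthest libraries. In actl6a libraries r was 0.735 (exact permutation p = 0.0326, adjusted 0.111, n = 8) and rho 0.476 (exact permutation p = 0.243, adjusted 0.469). Without the 2 farthest libraries that r was 0.784. Whether these relations differ from each other was not tested.

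**Figure D4:**
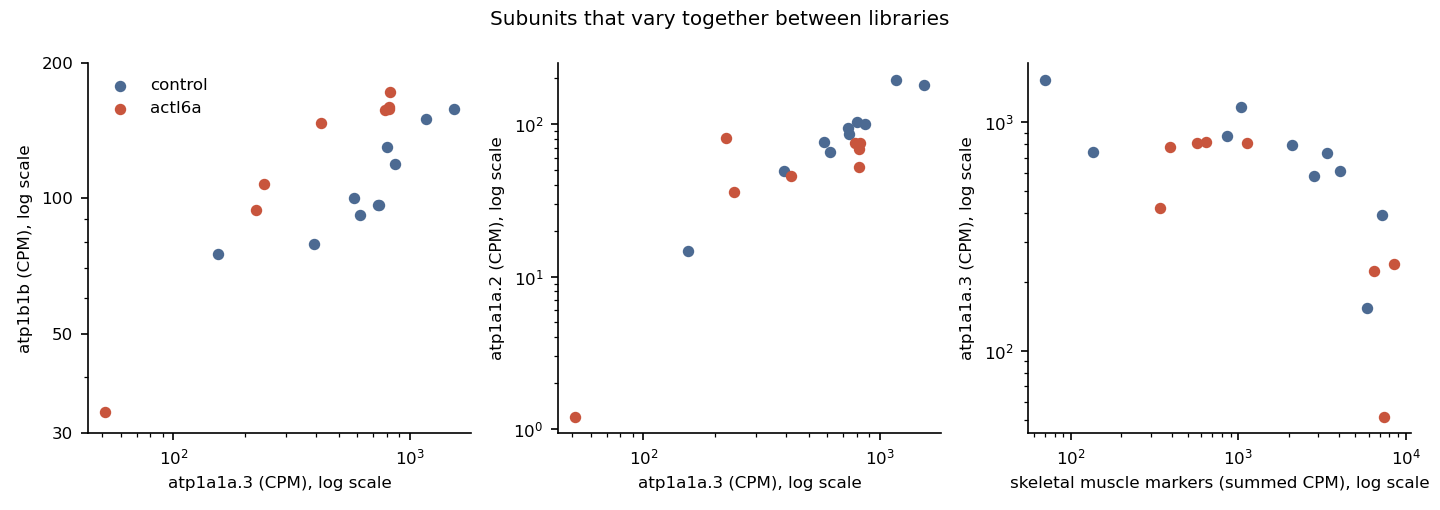
Levels in each library on log axes (CPM), with blue for control and red for actl6a libraries. The left panel has atp1b1b against atp1a1a.3, the middle panel atp1a1a.2 against atp1a1a.3, and the right panel atp1a1a.3 against the summed level of skeletal muscle markers. In the left panel points of each group rise together (r = 0.872 in controls and 0.971 in actl6a), and in the right panel the libraries with the highest muscle sums have the lowest atp1a1a.3.

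Relations of the subunits to the skeletal muscle markers were mixed, and most did not pass adjustment. In controls atp1a1a.3 against the summed muscle level had rho = -0.87 (two-sided permutation p = 0.0021, adjusted 0.0833 over 112 relations, n = 10) and r = -0.68 (permutation p = 0.0319, adjusted 0.254), with r = -0.76 without the 2 farthest libraries. In actl6a libraries rho was -0.52 (exact permutation p = 0.197, adjusted 0.688, n = 8) and r -0.79 (exact permutation p = 0.0161, adjusted 0.164), with r = -0.69 without the 2 farthest. The closest relation was that of atp1a1a.5 in actl6a libraries, with r = -0.94 (exact permutation p = 0.00109, adjusted 0.0417, n = 8) and rho = -0.93 (exact permutation p = 0.00223, adjusted 0.0833), and r = -0.90 without the 2 farthest. For atp1a1a.4 in controls rho was -0.12 (permutation p = 0.758, adjusted 0.951, n = 10), r -0.51 (permutation p = 0.142, adjusted 0.507), and r 0.55 without the 2 farthest. For atp1a1a.2 rho was -0.77 in controls (permutation p = 0.0127, adjusted 0.178, n = 10) and -0.36 in actl6a libraries (exact permutation p = 0.389, adjusted 0.854, n = 8). Its r was -0.61 (permutation p = 0.0660, adjusted 0.368) and -0.51 (exact permutation p = 0.127, adjusted 0.490), and without the 2 farthest libraries -0.75 and 0.424. In controls atp1b1b had rho = -0.83 (permutation p = 0.00459, adjusted 0.112, n = 10) and r = -0.64 (permutation p = 0.0446, adjusted 0.294). In actl6a libraries its rho was -0.52 (exact permutation p = 0.197, adjusted 0.688, n = 8) and r -0.74 (exact permutation p = 0.0115, adjusted 0.164). Without the 2 farthest libraries r was -0.897 and -0.855. The part of muscle in the relation of atp1b1b to atp1a1a.3 was not tested. Control replicate 4 had the lowest muscle sum, 70.2 CPM, and the highest atp1a1a.3, atp1a1a.4 and atp1b1a. It also had the smallest total of all libraries, 1564673 counts. Which of these goes with its high values was not tested.

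When the mean log2 CPM of the epidermis, blood, neural and muscle markers entered the model as covariates, the fitted log2 fold changes of 5 subunits changed sign. They became 0.34 for atp1a1a.2, 0.18 for atp1a1a.4, -0.64 for atp1a1b, 0.41 for atp1b1a and 0.15 for atp1b3a. None of the 8 passed in that fit, which called 140 accessions in all (0.968%), and atp1a1a.3 and atp1a1a.5 were at -0.10 and -0.59. Summed neural markers were 22.1 to 91.8 CPM in controls and 79.3 to 539 in actl6a libraries. Group and marker level thus went partly together, and that fit cannot fully tell them apart. The summed blood markers were 33.0 to 1465 CPM in controls and 175 to 3809 in actl6a libraries, and the epidermis markers 352 to 1432 and 433 to 3775 CPM. None of the 7 tested muscle accessions and none of the 8 tested blood accessions passed the test, nor did the 3 notochord accessions. Of the epidermis accessions 2 of 9 rose, and of the neural ones 2 of 4, where 7.9% of all tested accessions rose. The fitted log2 fold changes were positive for all 8 blood accessions (median 1.48), all 9 epidermis accessions (1.39) and all 4 neural accessions (2.02). Median summed blood markers were 74.7 CPM in controls and 504 in actl6a libraries, and epidermis markers 649 and 1510 CPM. For muscle 6 of 7 were positive (median 0.35), with summed medians of 2469 and 884 CPM.

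Ionocytes, skin cells that are also rich in this pump, were checked by their markers. Their transcription factor genes foxi3a and foxi3b were too low to test, at 3.79 ± 2.07 and 1.495 ± 1.82 CPM (SD, n = 10) in controls and 3.78 ± 4.16 and 1.36 ± 1.09 CPM (SD, n = 8) in actl6a libraries. The related gene foxi1 rose from 27.5 ± 13.6 CPM (SD, n = 10) to 85.3 ± 13.9 (SD, n = 8), for a log2 fold change of 1.63 ± 0.26 (SE, edgeR adjusted p = 5.18e-04). For foxi1 the actl6a and control ranges did not overlap, with all 8 actl6a libraries above, as in 0.933% of all tested accessions. The other tested genes of this list, ca2 and atp6v1aa, did not pass, so 1 of 3 rose, where 7.9% of all tested accessions rose. Their levels were 473 ± 100 and 123 ± 13.8 CPM (SD, n = 10) in controls. In actl6a libraries they were 513 ± 43.2 and 115 ± 12.9 CPM (SD, n = 8). Of these, ca2 is also on the list of duct ion transport genes. The whole list summed to 471 to 781 CPM in controls and 616 to 780 in actl6a libraries.

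The largest counts in these tables bear on atp1b1a and atp1a1a.4. The largest count of any accession in a library lay between 5392 and 6361, a 1.18-fold range, while library totals differed 2.17-fold. Counts of atp1b1a were 4034 to 5967, the rank 7 of all accessions by mean level, and those of atp1a1a.4 were 2479 to 5354, rank 18. CPM of atp1b1a was lower in libraries with higher totals, with r = -0.94 in controls (two-sided permutation p = 0.00013, adjusted 0.0146 over 112 relations, n = 10) and r = -0.95 in actl6a libraries (exact permutation p = 0.00112, adjusted 0.0417, n = 8). Its rho was -0.83 (permutation p = 0.00498, adjusted 0.112) and -0.95 (exact permutation p = 0.00114, adjusted 0.0833), and without the 2 farthest libraries r was -0.79 and -0.78. For atp1a1a.4 in controls r was -0.82 (permutation p = 0.0141, adjusted 0.164, n = 10) and rho -0.50 (permutation p = 0.145, adjusted 0.627). Without the 2 farthest libraries its r was 0.195, so this relation rests on them. In actl6a libraries r for atp1a1a.4 was -0.71 (exact permutation p = 0.0501, adjusted 0.312, n = 8) and rho -0.62 (exact permutation p = 0.115, adjusted 0.537). Without the 2 farthest of these libraries r was -0.16.

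**Figure D5:**
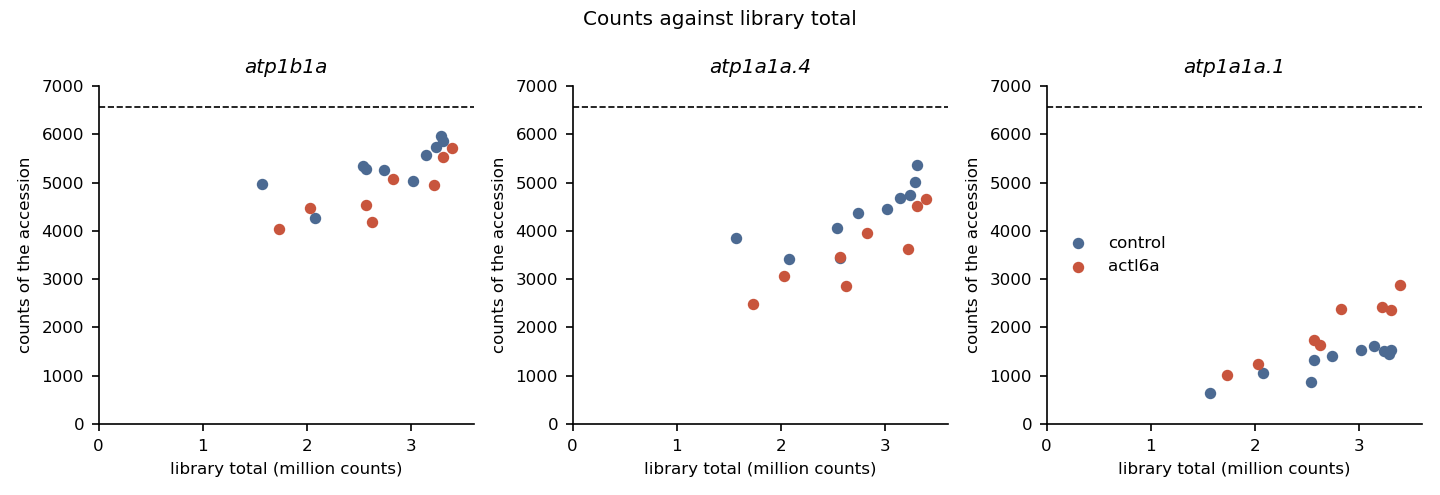
Counts of atp1b1a, atp1a1a.4 and atp1a1a.1 in each library (linear axis from 0) against the library total (axis in units of 1000000 counts), with blue for control and red for actl6a libraries. The dashed line is the assumed pool of 6561 identifiers, and no count in the tables is above 6361. Counts of atp1b1a lie between 4034 and 5967, which is 61.5% to 90.9% of the pool, and are highest in libraries with high totals.

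Whether molecular identifiers were counted is not given in the sources used here. If each count had been limited to 6561 distinct identifiers (8 bases of 3 letters, an assumption made after these counts were seen), the corrected counts would be larger for the most counted genes. In that fit atp1a1a.4 measured 2434 ± 453 corrected CPM (SD, n = 10) in controls and 1854 ± 243 (SD, n = 8) in actl6a libraries, with all 8 below the control median. Its log2 fold change was -0.39 ± 0.12 (SE, edgeR adjusted p = 0.0264), past the threshold that the deposited counts did not reach, in a fit that called 16.7% of all accessions. For atp1b1a the corrected values were 3805 ± 696 (SD, n = 10) and 3183 ± 420 (SD, n = 8), for a log2 fold change of -0.26 ± 0.11 (SE, edgeR adjusted p = 0.128). The corrected CPM of atp1b1a against the library total had r = -0.41 in controls (permutation p = 0.236, adjusted 0.641, n = 10) with rho = 0.0545 (permutation p = 0.891, adjusted 0.951), and r = 0.146 without the 2 farthest libraries. In actl6a libraries that r was -0.41 (exact permutation p = 0.307, adjusted 0.658, n = 8), and 0.581 without the 2 farthest. For corrected atp1a1a.4 in controls r was -0.25 (permutation p = 0.447, adjusted 0.747, n = 10) and rho 0.321 (permutation p = 0.367, adjusted 0.854). Without the 2 farthest libraries its r was 0.746, where deposited counts gave 0.195. The other 6 subunits did not pass in the corrected fit, where atp1a1a.5 was at -0.99 (edgeR adjusted p = 0.0505) and atp1a1a.3, which moved furthest of the 6, at -0.64.

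Of the small FXYD proteins, fxyd2 encodes the gamma subunit of the kidney pump and was chosen after its values were seen. Its coding accession NM_001281921.2 measured 1258, 1535 and 2616 CPM (lowest, median, highest) in controls and 944, 1391 and 2037 CPM in actl6a libraries. The groups overlapped, and control replicate 4 was the highest library here too. The log2 fold change was -0.19 ± 0.16 (SE, edgeR adjusted p = 0.440), -0.09 without control replicate 4 and -0.38 with the identifier correction. For the noncoding accession XR_661637.3 it was 0.28 ± 0.16 (SE, edgeR adjusted p = 0.239). The 2 accessions may share reads. The gene fxyd3, also chosen after its values were seen, was at 288 ± 41.8 CPM (SD, n = 10) in controls and 300 ± 65.35 (SD, n = 8) in actl6a libraries. Its log2 fold change was 0.06 ± 0.12 (SE, edgeR adjusted p = 0.787).

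The gene fxyd6, which encodes a phosphohippolin known from mammalian brain and ear as a pump modulator, fell. It measured 21.3, 40.0 and 128 CPM (lowest, median, highest) in controls and 0, 9.59 and 19.5 CPM in actl6a libraries, where 0 counts in replicate 2 allow up to 3 counts. All 8 actl6a libraries were below every control, as in 0.837% of all tested accessions. Means were 48.1 ± 30.4 CPM (SD, n = 10) and 10.19 ± 6.11 (SD, n = 8), for a log2 fold change of -2.23 ± 0.48 (SE, edgeR adjusted p = 0.00425). With the tissue markers as covariates it was -1.56 (adjusted p = 0.285).

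Across the list of other pump genes, 10 accessions were tested, of which atp1a1a.1 rose, fxyd6 fell and 8 did not pass. That is 20% called, beside 16.4% of all tested accessions, and the median log2 fold change was 0.04. The beta family gene atp1b4 was at 7.74 ± 4.61 CPM (SD, n = 10) in controls and 16.9 ± 9.25 (SD, n = 8) in actl6a libraries, with a log2 fold change of 1.13 ± 0.40 (SE, edgeR adjusted p = 0.0595). It passed at 0.0269 in DESeq2 and at 0.0318 in limma-voom, and when control replicate 1 or actl6a replicate 5 was left out. The alpha2 gene atp1a2a, typical of muscle, was at 0.03 ± 0.85, and the alpha3 genes atp1a3a and atp1a3b, typical of neurons, at -0.52 ± 0.34 and 0.01 ± 0.36 (log2 fold change, SE). The beta genes atp1b2a and atp1b3b were at -0.0047 ± 0.18 and 0.27 ± 0.23, and nkain1 and the tested accession of nkain4, genes for proteins that bind the beta subunit in mammals, at 0.05 ± 0.23 and 0.69 ± 0.67. The genes atp1b2b and fxyd7 were too low to test.

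Of the list of duct ion transport genes, 17 accessions were tested and 2 passed, 1 in each direction. That is 11.8%, beside 16.4% of all tested accessions, and the median log2 fold change was 0.12. The gene slc5a12, a sodium-coupled lactate transporter, rose from 11.4 ± 6.50 CPM (SD, n = 10) to 45.0 ± 24.1 (SD, n = 8), for a log2 fold change of 1.98 ± 0.46 (SE, edgeR adjusted p = 0.00729). The gene slc12a10.3, of the chloride cotransporter family, fell from 33.6 ± 32.0 CPM to 6.07 ± 4.74, a log2 fold change of -2.47 ± 0.71 (SE, edgeR adjusted p = 0.0232). With the tissue markers as covariates neither passed, at 1.04 (adjusted p = 0.478) and -2.62 (adjusted p = 0.289), and slc12a10.3 was also at -2.03 (adjusted p = 0.200) in limma-voom. The gene slc5a12 also did not pass when the replicate number was added to the model as a block.

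The transporter genes slc12a1, slc12a3 and slc20a1a, known from duct segments, did not pass. The sodium-potassium-chloride cotransporter gene slc12a1 was at 121 ± 48.6 CPM (SD, n = 10) and 85.2 ± 14.5 (SD, n = 8), and the log2 fold change was -0.50 ± 0.19 (SE, edgeR adjusted p = 0.0809), and passed at 0.0482 with library totals unscaled and at 0.0423 without control replicate 6. The sodium-chloride cotransporter gene slc12a3 was at 392 ± 173 and 282 ± 98.5 CPM, with -0.47 ± 0.27 (SE, edgeR adjusted p = 0.237) and -0.30 without control replicate 4. The phosphate transporter gene slc20a1a was at 224 ± 57.8 and 194 ± 55.1 CPM, with -0.21 ± 0.18 (SE, edgeR adjusted p = 0.454) and -0.12 without actl6a replicate 3.

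In the list of pump regulators and duct transcription factors, 0 of 19 tested accessions passed, where 16.4% of all tested accessions did. Among them sgk1 and esrra have more than 1 accession each. The lists also share genes, so their counts are not separate results. The pronephros markers hnf1ba, hnf1bb and lhx1a are in this list. The pronephros markers slc12a1, slc12a3, slc20a1a, trpm7 and kcnj1a.1 are in the duct ion transport list. The median log2 fold change was -0.03. The transcription factor genes hnf1ba and hnf1bb, needed for tubule identity in the zebrafish pronephros, were at 210 ± 119 and 426 ± 62.9 CPM (SD, n = 10) in controls and 221 ± 51.5 and 476 ± 147 CPM (SD, n = 8) in actl6a libraries. Their log2 fold changes were 0.08 ± 0.62 and 0.16 ± 0.15 (SE, edgeR adjusted p = 0.947 and 0.493). The hnf1ba value, with 1 count in the lowest control, was 1.61 in limma-voom and 1.59 with tissue markers as covariates, and neither passed. For hnf1bb it was 0.69 with those covariates and 0.04 without actl6a replicate 4, and neither passed. The kinase gene sgk1, which raises sodium pump activity in mammalian kidney, was at 0.06 ± 0.19 for its most counted accession.

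The accessions that varied most like each subunit were found from Spearman's rho of log2 CPM over all 18 libraries after each group's mean was subtracted, among 5679 accessions with a mean of at least 50 CPM. These rho describe libraries that share depth and tissue make-up, and no p is given. For atp1a1a.4 they were ildr1a, a receptor of tricellular junctions, at 0.920, mtfr1, perp, a desmosome component, and the accession XM_021473118.1, each at 0.882, and esrp2, an epithelial splicing factor, at 0.874. For atp1b1a they were tmod2 at 0.934, golph3b at 0.930 and stambpa at 0.924.

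For atp1a1a.3 the closest were tspan13a at 0.946, the accession XR_002457438.1 at 0.926 and etf1a at 0.924, the last level with atp1b1b, for which atp1a1a.3 was first at 0.924. The accessions XR_002457438.1 and XM_003200880.3 followed atp1b1b at 0.915 each. For atp1a1a.2 they were LOC101883640 at 0.934, plcg2 at 0.917 and the claudin gene cldn8.1 at 0.907. For atp1a1a.5 they were alox5a at 0.897, XM_003200880.3 at 0.853 and XR_222290.3 at 0.845. Means of XR_222290.3 and XR_002457438.1 were near equal, 81.3 CPM each in controls and 43.1 each in actl6a libraries, and these may share reads.

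The likeness of atp1b3a and atp1a1b to any other accession was lower. For atp1b3a the closest were csnk2a2a at 0.847, ankrd45 at 0.792 and tomm20b, a mitochondrial import receptor gene, at 0.787. For atp1a1b they were XR_002456996.1 and XR_002458691.1 at 0.664 each and snrnp25 at 0.651. The first 2 had near equal means, 104 CPM each in controls and 161 each in actl6a libraries, and may share reads.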

How the data were processed

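The deposited values are counts, unnormalised whole numbers per RefSeq accession, in a table for each group. Per the submitters' processing notes the authors used cutadapt, FastQC, STAR, featureCounts and edgeR with build GRCz11; strand and multi-mapping settings are not given in the sources used here. An accession listed in 1 table was taken as 0 in the other. Symbols came from RefSeq accessions, and 20215 of 32820 accessions, with 87.59% of counts, had a symbol. No sequences were used.

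The groups were tested in edgeR 4.0.16 (R 4.3.3). After filterByExpr, 14462 accessions with 98.25% of counts remained. They were scaled by TMM and fitted with group alone in a quasi-likelihood model. Its two-sided p-values were adjusted over all tested accessions (Benjamini-Hochberg, threshold 0.05). Tolerance for accessions of like level was a mean within 1.5-fold. The SE is the absolute log2 fold change over the square root of F. CPM use TMM-scaled totals, and correlations use log2 CPM with a prior count of 2. A count of 0 allows 3 counts, 0.838 to 1.95 CPM on that scale, for counting error only. Correlations were tested within groups with SciPy 1.17.1, by 100000 resamples for 10 libraries and all 40320 pairings for 8. Libraries of a group had Spearman's rho of 0.814 to 0.942, and every pair differed by more than sampling noise (chi-square per degree of freedom of at least 5.55).

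Alternatives were DESeq2 1.42.0, limma-voom (limma 3.58.1), other scalings, no filter, accessions summed by symbol, a replicate block, tissue marker scores as covariates, and each library left out. The correction for an identifier pool was added after seeing the counts.

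Subunits and lists were chosen with earlier results of these data known. Named were all 8 subunits, all counted genes of the other pump list, called genes of the transport and regulator lists with slc12a1, slc12a3, slc20a1a, hnf1ba and hnf1bb, the marker lists, actl6a, and the accessions most like each subunit. The genes fxyd2, fxyd3 and sgk1 were chosen after their values were seen.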

Additional observations from a re-analysis of the deposited data

Results flagged for a closer look

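Dixon's test at the 95% level flagged a library far from the others in 4 of 18 combinations of a gene and a group. Chance flags about 1 of 20 where values are normally distributed. The test was run on CPM without a log scale, and all 4 flags were for a highest library. The chance rate for such values is therefore not known. Control replicate 4 was highest for atp1a1a.4, at 2511 CPM with the next control at 1732, and for atp1b1a, at 3227 CPM with the next at 2164. Its library total, 1564673 counts, was the smallest of all libraries. Control replicate 9 was highest for atp1a1a.5, at 156 CPM with the next at 95.7. Actl6a replicate 2 was highest for atp1a1b, at 68.2 CPM with the next at 30.2.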

How the results depend on the processing

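Over the alternatives, 708 of 755 recomputed values kept their direction and side of the threshold, or, for counts of accessions, stayed within 1.5 times the reported count. The median over all tested accessions ran from -0.064 to 0.043. For atp1a1a.5 the call changed with unscaled library totals (log2 fold change -1.05, adjusted p 0.0428) and DESeq2 (-0.95, adjusted p 0.0224), with a range of -1.15 to -0.75 when single libraries were left out. The count of subunits called was then 1 with unscaled totals, with DESeq2 and with the identifier correction, and 0 to 1 with single libraries left out. The identifier correction, added after seeing the data, put atp1a1a.4 at -0.39.

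With tissue markers as covariates the sign turned for atp1a1a.2 (0.34), atp1a1a.4 (0.18), atp1a1b (-0.64), atp1b1a (0.41), atp1b3a (0.15), fxyd2 (0.50), slc12a3 (0.088) and the summed copies (0.25), and 140 accessions were called, 70 higher and 70 lower. The cause was not tested. Leaving out single libraries gave ranges that cross 0 for atp1b1a (-0.13 to 0.047), atp1b3a (-0.093 to 0.035) and hnf1ba (-0.080 to 0.20).

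The reported comparison called 1143 accessions higher and 1232 lower, and unscaled totals 852 and 1608. No pairing of the libraries by replicate number was seen over all tested accessions. Same-numbered libraries had correlations of -0.14 to 0.32, and 1 of 8 was closest to its own number. Whether same-numbered libraries shared an injection or a preparation was not tested. A replicate block over libraries 1 to 8 called 1058 accessions, 498 higher and 560 lower, where the same libraries without it gave 1850. It called no subunit, and slc5a12 (1.91, adjusted p 0.0674) and actl6a (0.29, adjusted p 0.0707) no longer passed. The value of hnf1ba was 0.74 with the block and 1.61 in limma-voom. Sparse counts limit atp1a1b, at 3 to 169 counts in a library.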
